A study of Caenorhabditis elegans with 12 samples.

Results

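The nlp genes encode neuropeptide-like proteins of the nematode Caenorhabditis elegans. They were taken as every gene whose name in the deposited count table begins with nlp- and a number. That rule finds 42 of the 18467 genes in the table, of which 7 fall in the numbered run nlp-27 to nlp-34 (nlp-32 is not analysed here) and 35 lie outside it. RNA came from whole wild-type N2 worms fed RNAi bacteria from the L1 larval stage and collected after 2.5 days at 20 °C, as L4 larvae or young adults. The 4 groups of 3 libraries were vha-6 RNAi, vha-16 RNAi and vha-19 RNAi, each given as 25% target bacteria with 75% control bacteria, and control RNAi. The targets are subunits of the vacuolar H+-ATPase, the proton pump that acidifies lysosomes, and every group was N2 with no transgene named in the labels. The labels do not say whether replicates were separate cultures, so a p-value here reflects the spread among the 12 libraries, and that spread may be technical.

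Most nlp precursors are made in neurons, cut into short peptides by proprotein convertases and released from dense-core vesicles to act on G-protein-coupled receptors. A run of glycine- and tyrosine-rich nlp peptides is instead made in the epidermis, the skin of the worm, where nlp-29 is a standard reporter of the antimicrobial response to fungal infection and wounding. Its induction there runs through the adaptor TIR-1, a p38 kinase cascade that ends in PMK-1, and the STAT-like factor STA-2 with the transporter SNF-12. The intestine makes at least 1 member, nlp-40, which sets the timing of the defecation programme. The family therefore samples neurons, skin and gut in the same RNA.

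Each library held 21981854 to 22553227 counts in genes, and levels are given as CPM, a share of each library after edgeR's TMM scaling. The targeted transcripts were lowest in their own RNAi, with vha-6 at 89.2 to 98.5 CPM under vha-6 RNAi against 396 to 405 CPM in control, vha-16 at 262 to 276 CPM under vha-16 RNAi against 429 to 453 CPM in control, and vha-19 at 206 to 224 CPM under vha-19 RNAi against 462 to 475 CPM in control. Of 17043 genes tested with edgeR's quasi-likelihood test, 89.4%, 89.8% and 89.9% differed from control at adjusted p under 0.05 in the vha-6, vha-16 and vha-19 comparisons. A call by itself therefore says little about a gene, and the sizes of the changes carry more. Among the calls 53.6%, 53.4% and 53% were higher, and 63.9%, 65.2% and 65.3% when libraries were scaled by their totals, which moved the median of all genes by 0.445, 0.517 and 0.542 on the log2 scale. All 3 comparisons use the same 3 control libraries.

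Nearly all nlp genes were higher in the knockdowns than in control. Of the 41 members that passed the low-count filter, 39 were called higher and 2 lower under vha-6 RNAi, 37 higher and 2 lower under vha-16 RNAi, and 38 higher and 2 lower under vha-19 RNAi. Over all genes tested the share called higher was 47.9%, 48% and 47.7%, and the share called lower 41.4%, 41.9% and 42.2%. The median log2 fold change of the members was 1.25, 1.52 and 1.41, beside 0.24, 0.20 and 0.19 over all genes tested. Called higher in all 3 comparisons were 36 members, against 40.2% of all genes tested. Of the 42 members, 6 had a mean control count under 10, and those among them that were tested passed the filter through the knockdown libraries, so their inclusion favoured rises. In whole-worm RNA, more cells of a type and more RNA per cell cannot be told apart.

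**Figure D1:**
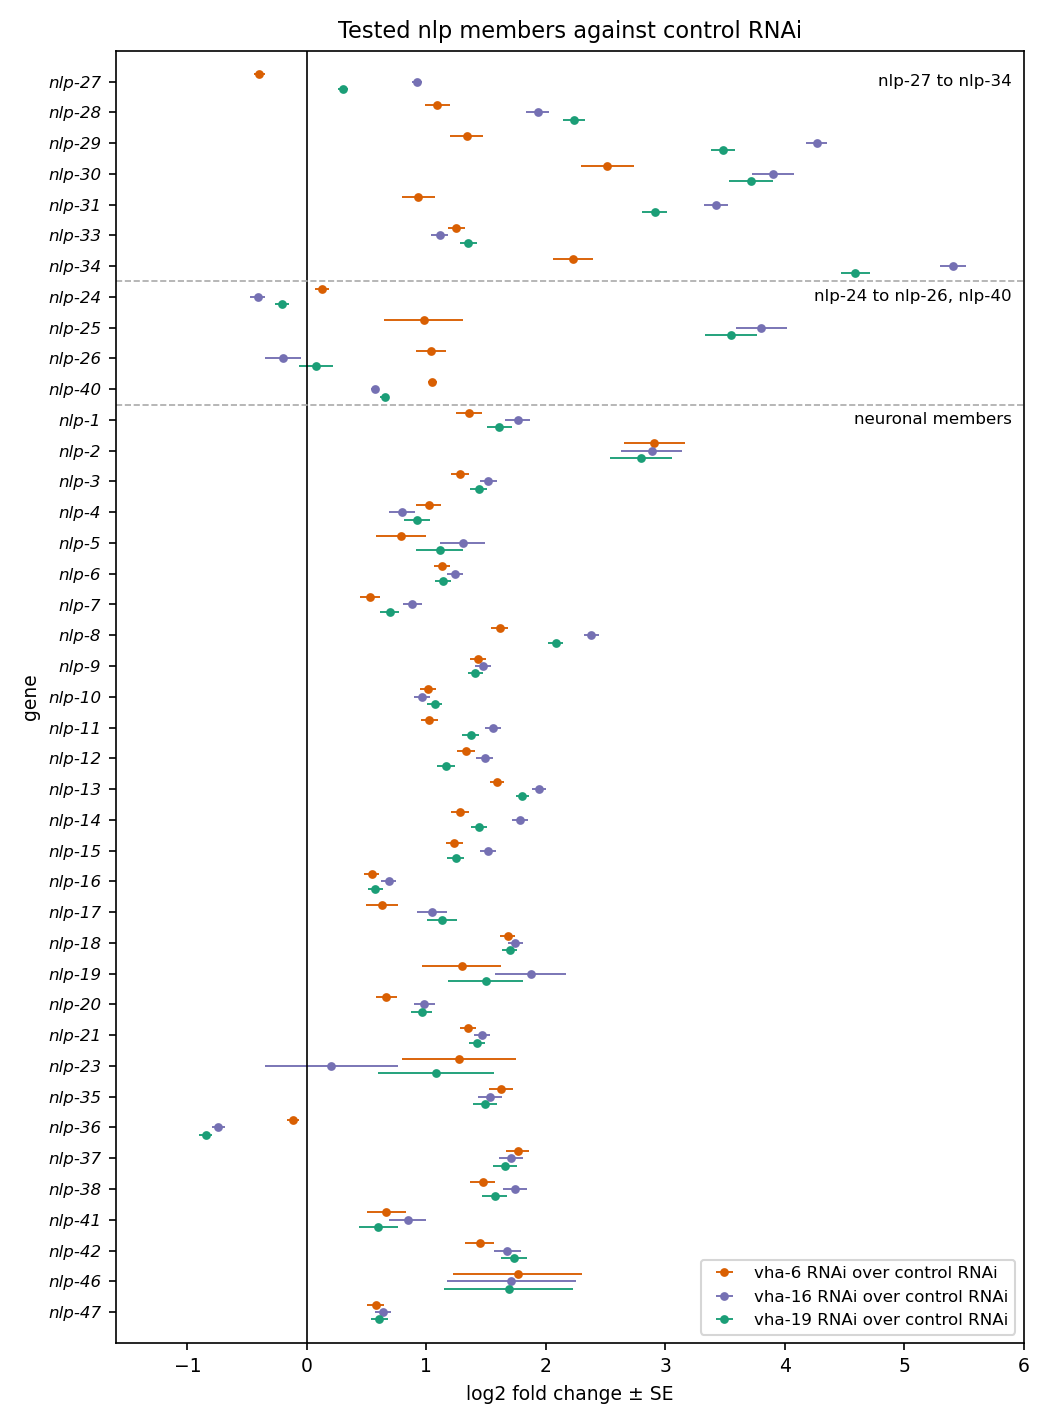
Log2 fold change (horizontal axis, bars are 1 SE) of each of the 41 tested nlp genes in the vha-6, vha-16 and vha-19 groups over control RNAi, 3 libraries per group. Of 30 neuronal members 26 lie between 0.5 and 2 in all 3 comparisons, while nlp-2 lies higher at 2.80 to 2.91 and nlp-36 below 0. In the vha-16 and vha-19 groups nlp-29, nlp-30, nlp-31 and nlp-34 reach 2.91 to 5.41, and nlp-25 reaches 3.80 and 3.55.

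The epidermal members occupied a single locus with 1 exception. Of the 7, 6 genes, written from left to right nlp-34, nlp-31, nlp-30, nlp-29, nlp-28 and nlp-27, lay between 3978825 and 3989770 on chromosome V (WBcel235), a span of 10946 bases with no other gene of the table inside it. The gene nlp-34 lies on the minus strand and the other 5 on the plus strand. The gene nlp-33 lay elsewhere on chromosome V, at 11147346 to 11147737, 7157576 bases to the right. All 7 genes are annotated as protein-coding, each with 2 exon blocks and 264 to 714 bases of exon. None of them overlapped an exon of another annotated gene. Of the 42 members in all, 14 lay on chromosome V, 9 on X and 7 on I.

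The gene nlp-34 made the largest change of the family. It had 8.75, 8.77 and 11.3 CPM under vha-6 RNAi, 85.6, 94.9 and 81 CPM under vha-16 RNAi, and 54.6, 47.1 and 46.7 CPM under vha-19 RNAi, against 2.46, 1.77 and 1.91 CPM in control. The 4 groups did not overlap, and their order was vha-16, vha-19, vha-6, control. The fold over control was 4.69 under vha-6 RNAi (log2 2.23, SE 0.17, adjusted p = 3.11e-14), 42.5 under vha-16 RNAi (log2 5.41, SE 0.11, adjusted p = 1.23e-30) and 24.1 under vha-19 RNAi (log2 4.59, SE 0.12, adjusted p = 1.99e-27).

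The reporter gene of epidermal immunity, nlp-29, followed the same order of groups. It stood at 7.25, 6.64 and 7.75 CPM under vha-6 RNAi, 54, 54.8 and 56.2 CPM under vha-16 RNAi, and 33.6, 30.5 and 31.8 CPM under vha-19 RNAi, against 3.63, 2.06 and 2.86 CPM in control. Its rise was 2.52-fold under vha-6 RNAi (log2 1.34, SE 0.13, adjusted p = 3.77e-11), 19.2-fold under vha-16 RNAi (log2 4.27, SE 0.091, adjusted p = 4.18e-30) and 11.2-fold under vha-19 RNAi (log2 3.48, SE 0.1, adjusted p = 1.87e-26). No library of any knockdown reached down to the control range.

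Between nlp-34 and nlp-29 lie nlp-31 and nlp-30, which encode further epidermal peptides of the same run. For nlp-31 the libraries gave 5.16, 4.3 and 4.77 CPM under vha-6 RNAi, 26.3, 27.4 and 26.4 CPM under vha-16 RNAi, and 19.5, 18 and 18.6 CPM under vha-19 RNAi, against 2.81, 2.42 and 2.21 CPM in control. The folds were 1.91, 10.7 and 7.52 in the vha-6, vha-16 and vha-19 groups (log2 0.93, 3.42 and 2.91, adjusted p at most 1.56e-07). Its groups did not overlap. The gene nlp-30 stood at 3.88, 3.7 and 3.62 CPM under vha-6 RNAi, 9.87, 10.1 and 9.32 CPM under vha-16 RNAi, and 9.62, 7.93 and 8.26 CPM under vha-19 RNAi, against 0.352, 0.884 and 0.715 CPM in control. Its folds were 5.71, 14.9 and 13.1 (log2 2.51, 3.90 and 3.72, adjusted p at most 1.48e-12). The ranges of nlp-30 under vha-16 and vha-19 RNAi overlapped, and its control level rests on 6 to 15 counts per library.

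Under vha-16 and vha-19 RNAi the right end of the locus changed less. The gene nlp-28 had 12.9, 13.6 and 10.5 CPM under vha-6 RNAi, 21.2, 22.2 and 22.8 CPM under vha-16 RNAi, and 28.7, 26.2 and 26.9 CPM under vha-19 RNAi, against 6.39, 5.25 and 5.72 CPM in control. It rose 2.13-fold, 3.81-fold and 4.71-fold (adjusted p at most 1.08e-11), so vha-19 RNAi gave its highest level, above the vha-16 RNAi libraries without overlap. The gene nlp-27, already abundant in control, had 43.5, 44.1 and 39.7 CPM under vha-6 RNAi, 103, 108.4 and 106 CPM under vha-16 RNAi, and 70.1, 69.8 and 67.2 CPM under vha-19 RNAi, against 54, 56.7 and 57.2 CPM in control. It was lower under vha-6 RNAi (log2 -0.40, SE 0.046, adjusted p = 1.24e-09), a difference that turned to 0.048 with library totals. Under vha-16 RNAi it was 1.89-fold higher (adjusted p = 1.55e-20) and under vha-19 RNAi 1.23-fold higher (adjusted p = 9.94e-08).

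**Figure D2:**
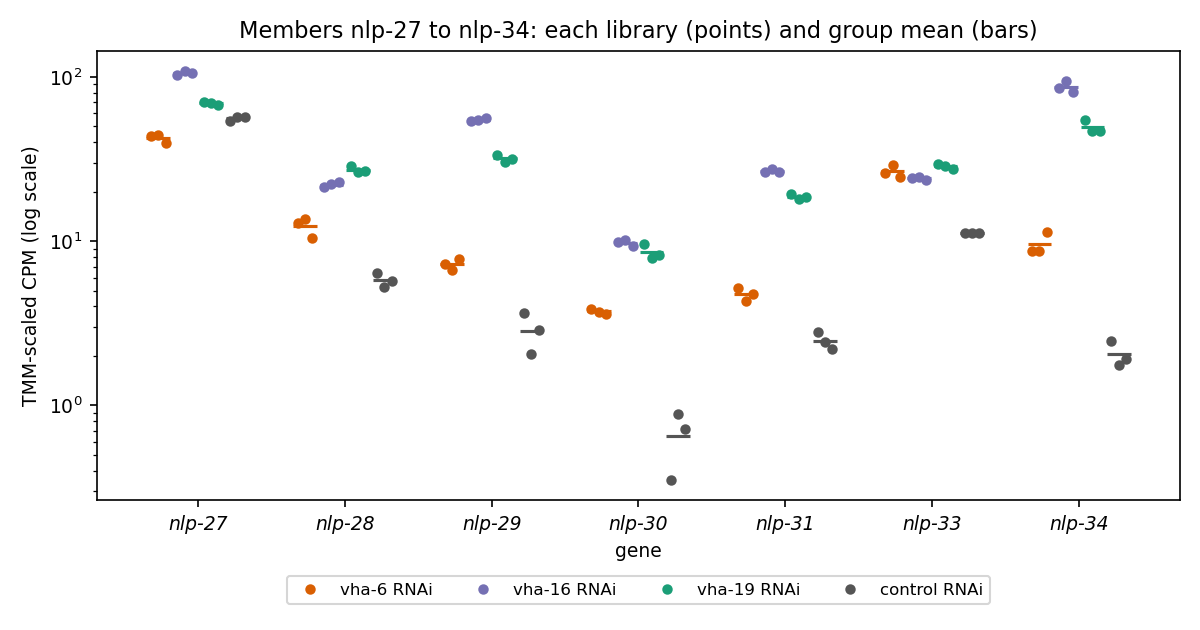
CPM on a log axis for each of the 7 epidermal genes, with each point 1 library and each bar the mean of 3, in the order vha-6, vha-16, vha-19 and control RNAi. The vha-16 and vha-19 libraries of nlp-29, nlp-31 and nlp-34 stand far above vha-6 and control, whereas the knockdown libraries of nlp-33 all lie between 23.5 and 29.3 CPM.

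The distant gene nlp-33 did not share the spread between knockdowns. It had 26.1, 28.9 and 24.7 CPM under vha-6 RNAi, 24.2, 24.6 and 23.5 CPM under vha-16 RNAi, and 29.3, 28.6 and 27.6 CPM under vha-19 RNAi, against 11.1, 11.2 and 11.1 CPM in control. The folds were 2.38, 2.16 and 2.55 (adjusted p at most 2.75e-16), close together and of the size seen in neuronal members. Its level was 1.25, 1.11 and 1.35 above control on the log2 scale, while the 6 locus members had medians of 1.21, 3.66 and 3.2.

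Genes next to the locus had their own patterns. On the left the cytochrome P450 genes cyp-34A10 and cyp-34A9 were highest under vha-6 RNAi, with log2 fold changes over control of 3.82 and 1.82, against 1.54 and 0.08 under vha-16 RNAi and 2.07 and 0.49 under vha-19 RNAi. Farther to the right K09D9.11 was at 2.80, 2.30 and 2.44 in the vha-6, vha-16 and vha-19 groups. Between K09D9.11 and nlp-27 lies srx-62, a sparse chemoreceptor-class gene with 25, 37 and 24 counts summed over the vha-6, vha-16 and vha-19 groups and 7 in control, at log2 1.33, 1.81 and 1.17. It was highest under vha-16 RNAi, but its vha-6 and vha-16 values were not called different (adjusted p = 0.254). The genes cyp-34A10, cyp-34A9 and K09D9.11 were higher under vha-6 than under vha-16 RNAi (adjusted p at most 1.48e-05), the opposite of the locus members.

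**Figure D3:**
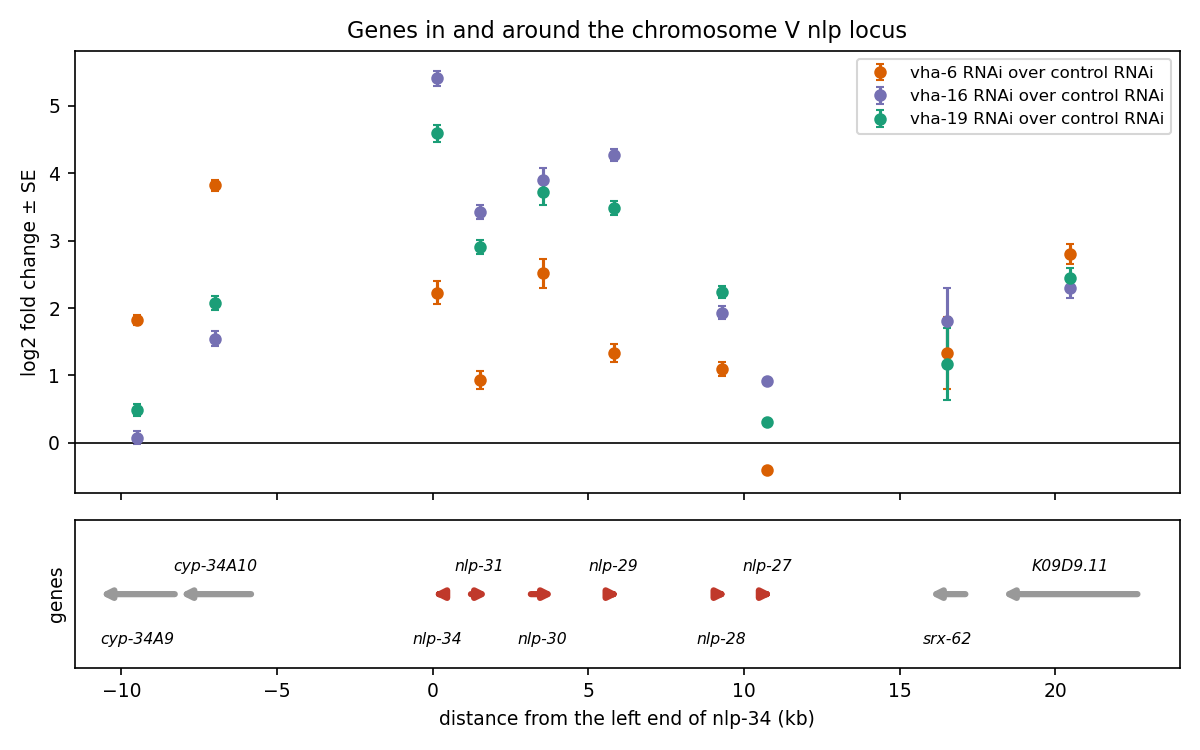
Upper panel, log2 fold change over control (bars are 1 SE) of each gene in and within 10 kb of the chromosome V locus, placed at the middle of the gene. Lower panel, the genes to scale as arrows in the direction of transcription, nlp genes in red, against distance in kb from the left end of nlp-34. The values under vha-16 and vha-19 RNAi are largest at nlp-34 and smallest among the 6 nlp genes at nlp-27.

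The knockdowns were also compared with each other. Between vha-6 and vha-16 RNAi 30 of 41 members were called, 7 higher and 23 lower under vha-6 RNAi, where 62.8% of all genes tested were called, 31.2% higher and 31.6% lower. The 6 locus members were all lower under vha-6 RNAi, by log2 -3.18 (SE 0.075) in nlp-34, -2.93 (SE 0.069) in nlp-29, -2.49 (SE 0.077) in nlp-31, -1.39 (SE 0.11) in nlp-30, -1.32 (SE 0.042) in nlp-27 and -0.84 (SE 0.073) in nlp-28 (adjusted p at most 3.15e-12). The gene nlp-33 was slightly higher there (log2 0.14, SE 0.057, adjusted p = 0.0308), a call that was lost with library totals (0.068) and without vha-6 replicate 2 (0.074). Of all genes tested 8.11% were called and lower by 2-fold or more, a size that 5 of the 7 epidermal members, nlp-25 (-2.83) and 0 of 30 neuronal members reached. The smallest difference in the locus, that of nlp-28, was close to that of the neuronal gene nlp-8 (-0.77).

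Between vha-16 and vha-19 RNAi 14 of 41 members were called, 11 higher and 3 lower under vha-16 RNAi, where 17.4% of all genes tested were called, 9.81% higher and 7.56% lower. The epidermal genes nlp-34 (log2 0.82, SE 0.057), nlp-29 (0.78, SE 0.053), nlp-27 (0.62, SE 0.039) and nlp-31 (0.51, SE 0.059) were higher under vha-16 RNAi (adjusted p at most 2.58e-08). The genes nlp-28 (-0.30, SE 0.064, adjusted p = 0.000585) and nlp-33 (-0.24, SE 0.055, adjusted p = 0.00174) were lower. For nlp-30 the difference of 0.18 (SE 0.09) was not called (adjusted p = 0.176). Between vha-6 and vha-19 RNAi 22 members were called, 5 higher and 17 lower under vha-6 RNAi, where 58.4% of all genes tested were called, 29% higher and 29.5% lower.

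**Figure D4:**
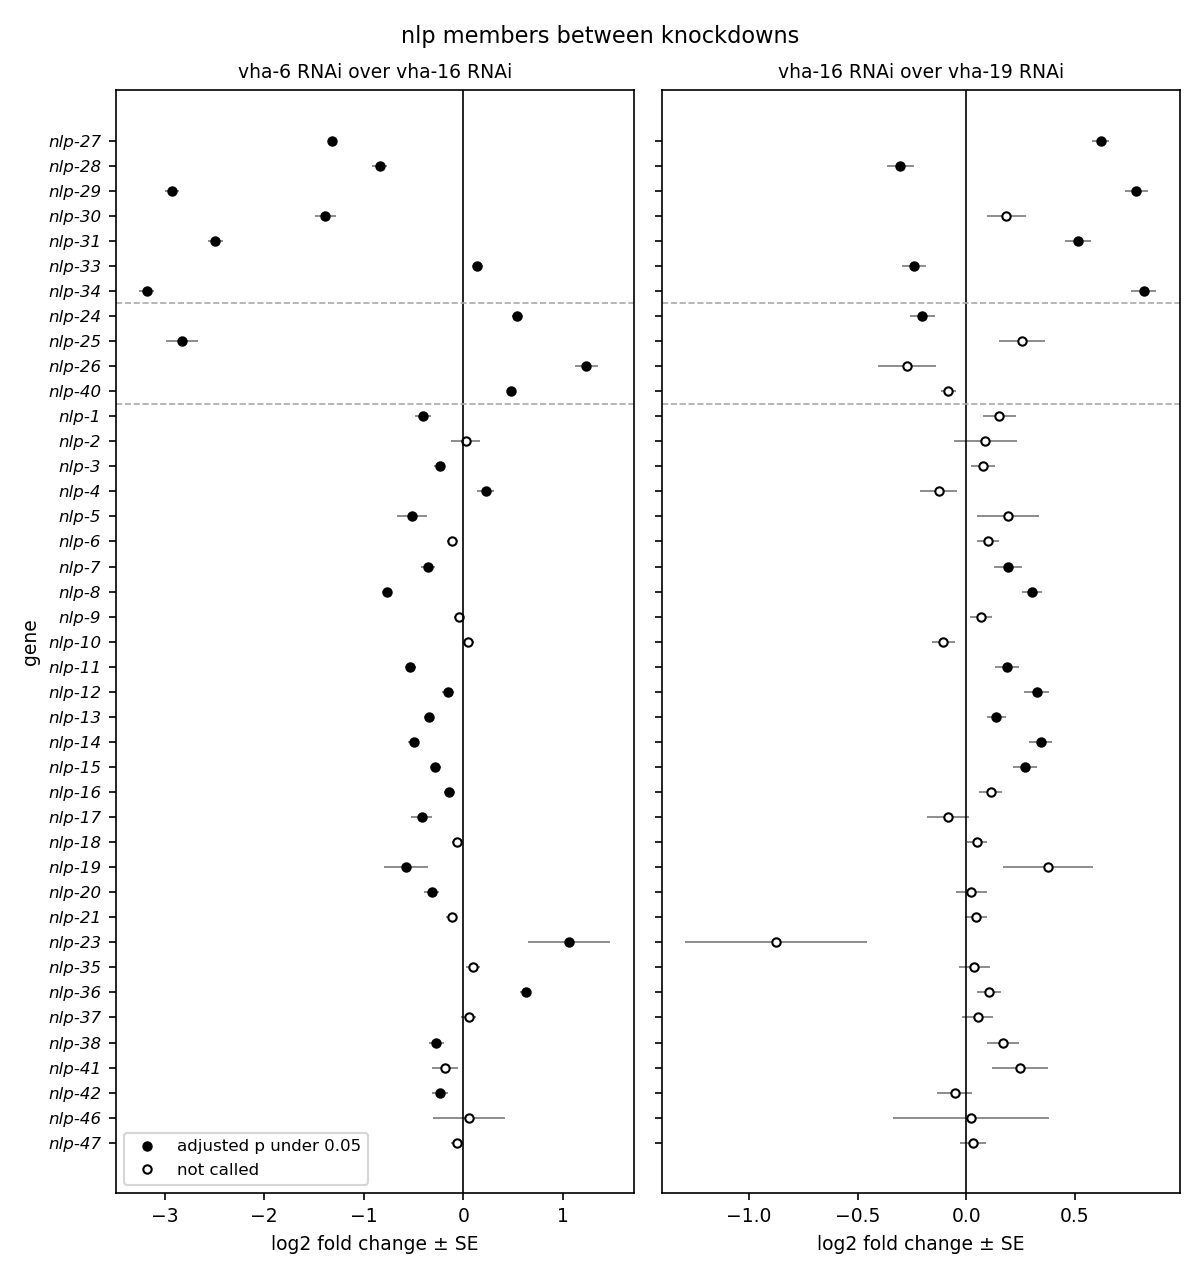
Log2 fold change (bars are 1 SE) of each tested nlp gene for vha-6 over vha-16 RNAi on the left and vha-16 over vha-19 RNAi on the right, filled where called at adjusted p under 0.05. In the left panel nlp-34, nlp-29, nlp-25 and nlp-31 lie at -3.18 to -2.49, far from the neuronal members.

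The genes nlp-24, nlp-25 and nlp-26, belong by number and peptide type next to the epidermal run, and all lie on chromosome V away from the locus. They moved in 3 different ways. The gene nlp-25 had 0.768, 0.724 and 0.852 CPM under vha-6 RNAi, 5.23, 5.43 and 6.07 CPM under vha-16 RNAi, and 4.51, 4.8 and 4.69 CPM under vha-19 RNAi, against 0.528, 0.295 and 0.358 CPM in control, where 5 to 9 counts were read per library. Its folds of 1.97, 14 and 11.7 (log2 0.98, 3.80 and 3.55, adjusted p at most 0.00711) ran in the order of nlp-29. Between vha-6 and vha-16 RNAi it differed by log2 -2.83 (SE 0.16, adjusted p = 3.2e-17).

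The gene nlp-26, separated from nlp-25 by 5041 bases, went a different way. It had 12.1, 12.3 and 9.58 CPM under vha-6 RNAi, 4.43, 5.63 and 4.34 CPM under vha-16 RNAi, and 5.03, 6.54 and 5.84 CPM under vha-19 RNAi, against 5.86, 4.3 and 6.38 CPM in control. It rose 2.05-fold under vha-6 RNAi (adjusted p = 3.07e-09), while the values under vha-16 and vha-19 RNAi overlapped those of control (log2 -0.20 and 0.07, adjusted p = 0.197 and 0.623) and changed with the scaling. Under vha-16 RNAi nlp-26 was called lower with DESeq2's size factors (-0.39) and without control replicate 2 (-0.35), and had the opposite sign with library totals (0.32), while under vha-19 RNAi it was called higher with library totals (0.62). Between vha-6 and vha-16 RNAi it differed by log2 1.24 (SE 0.12, adjusted p = 2.84e-11). An exon of nlp-26 overlaps Y43F8C.3 on the opposite strand, which had log2 fold changes of 1.40, 2.16 and 1.88 over control, and the strand setting of the counting is not given, so reads of the pair cannot be told apart.

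The gene nlp-24, linked to feeding through opioid-like signalling, changed little. It had 60.8, 58.3 and 60.9 CPM under vha-6 RNAi, 39.8, 44.4 and 39.6 CPM under vha-16 RNAi, and 49.9, 50.2 and 42.3 CPM under vha-19 RNAi, against 50.9, 54.5 and 59.4 CPM in control. Its log2 fold changes of 0.13, -0.41 and -0.21 over control were called (adjusted p = 0.0353, 8.1e-08 and 0.00111), but they became -0.0087 with DESeq2's size factors under vha-6 RNAi, and 0.11 and 0.33 with library totals under vha-16 and vha-19 RNAi. The vha-6 call was also lost without control replicate 1 (0.07), and without control replicate 2, vha-6 replicate 1 or vha-6 replicate 3 (0.12 each), and the vha-19 call without vha-19 replicate 3 (-0.11). An exon of nlp-24 also overlaps a gene on the opposite strand, glb-15, which stood at 1.76 to 2.31 CPM in the knockdowns and 0.944 CPM in control.

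The intestinal gene nlp-40 was the most abundant member per length of exon in all 4 groups, with 616 ± 6.69, 442 ± 21.3 and 468 ± 17.6 CPM per kb in the vha-6, vha-16 and vha-19 groups and 298 ± 9.55 CPM per kb in control (SD, n = 3 each). By library it had 443, 434 and 442 CPM under vha-6 RNAi, 307, 333 and 306 CPM under vha-16 RNAi, and 325, 348 and 328 CPM under vha-19 RNAi, against 207, 210 and 220 CPM in control. It was therefore highest under vha-6 RNAi, the reverse of the locus genes, and its vha-16 and vha-19 ranges overlapped. The rises were 2.07-fold, 1.48-fold and 1.57-fold (adjusted p = 8.45e-24, 3.69e-16 and 7.88e-18), and vha-6 over vha-16 RNAi gave log2 0.48 (SE 0.035, adjusted p = 3.9e-14). Of 10 intestinal markers, 6 were called higher and 4 lower under vha-6 RNAi, and 4 higher and 6 lower in each of the other knockdowns. These counts were not far from those of all genes tested, of which 47.9%, 48% and 47.7% were called higher and 41.4%, 41.9% and 42.2% lower. Their summed level was 14036 to 14867 CPM under vha-6 RNAi, 2802 to 2806 CPM under vha-16 RNAi and 2878 to 2918 CPM under vha-19 RNAi, against 5335 to 5605 CPM in control. That spread rests on asp-1, a gene of an aspartyl protease singled out after its values were seen, at 12426 ± 435 CPM under vha-6 RNAi, 859 ± 5.88 CPM under vha-16 RNAi and 742 ± 17.6 CPM under vha-19 RNAi, against 2656 ± 127 CPM in control (SD, n = 3 each). The other 9 markers summed to 2104 to 2123 CPM under vha-6 RNAi, 1936 to 1951 CPM under vha-16 RNAi and 2130 to 2162 CPM under vha-19 RNAi, against 2752 to 2802 CPM in control. These 9 did not move together, as 2 of them, singled out after their values were seen, show. The gene cpr-6 averaged 346, 317 and 285 CPM in the vha-6, vha-16 and vha-19 groups and 1409 CPM in control. The gene act-5 rose instead, at 1196, 1192 and 1414 CPM against 648 CPM in control. The list also includes vha-6, itself an RNAi target.

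The 31 remaining members are mostly known from neurons and are called neuronal here. Of 30 tested, 29 were higher and 1 lower under vha-6 RNAi, 28 higher and 1 lower under vha-16 RNAi, and 29 higher and 1 lower under vha-19 RNAi. Their median log2 fold changes were 1.28, 1.5 and 1.39, and 26 of the 30 lay between 0.5 and 2 in all 3 comparisons. By 2-fold or more 22, 21 and 23 of them were higher, beside 32%, 34.3% and 33.6% of all genes tested. Their summed level was 619 to 622 CPM under vha-6 RNAi, 690 to 736 CPM under vha-16 RNAi and 625 to 661 CPM under vha-19 RNAi, against 299 to 313 CPM in control. Exons of nlp-17, nlp-21, nlp-35, nlp-36, nlp-41 and nlp-46 overlap a gene on the opposite strand, as those of nlp-24 and nlp-26 do. With the strand setting not given, reads of these pairs cannot be told apart. The 7 epidermal members held 8.61% ± 0.301 of the summed CPM of the family in the vha-6 group, 23.6% ± 0.188 in the vha-16 group, 18.3% ± 0.684 in the vha-19 group and 12.3% ± 0.275 in control (SD, n = 3 each).

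Several neuronal peptides act in sleep, arousal and movement. The gene nlp-8, expressed in the sleep-promoting neuron ALA, had 29.8, 31 and 32.1 CPM under vha-6 RNAi, 50.9, 52.5 and 54.6 CPM under vha-16 RNAi, and 43.8, 41.3 and 43.1 CPM under vha-19 RNAi, against 9.73, 9.2 and 11.4 CPM in control. It rose 3.06-fold, 5.21-fold and 4.23-fold (adjusted p at most 4.34e-21), its 4 groups did not overlap, and vha-6 over vha-16 RNAi gave log2 -0.77 (SE 0.049, adjusted p = 7.58e-16). The orcokinin-like gene nlp-14 had 27.6, 29.2 and 29.9 CPM under vha-6 RNAi, 40.9, 43 and 38.7 CPM under vha-16 RNAi, and 33.3, 32.9 and 30.4 CPM under vha-19 RNAi, against 11.1, 11.4 and 13.2 CPM in control. Its folds were 2.43, 3.44 and 2.71, and those of its orcokinin-like relative nlp-15 were 2.35, 2.86 and 2.37. The gene nlp-37, which is the current pdf-2 and encodes a pigment-dispersing-factor peptide of arousal and locomotion, had 17.5, 16.7 and 17.3 CPM under vha-6 RNAi, 16.5, 17.3 and 16 CPM under vha-16 RNAi, and 17.9, 15.6 and 14.4 CPM under vha-19 RNAi, against 5.57, 5.13 and 4.47 CPM in control. Its folds of 3.39, 3.27 and 3.16 came with knockdown ranges that overlapped each other and lay wholly above control.

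Other neuronal members rose by amounts that differed from gene to gene. The gene nlp-12, a cholecystokinin-like peptide of the interneuron DVA that modulates locomotion, had 22.9, 23.6 and 24.7 CPM under vha-6 RNAi, 26.1, 26.5 and 26.6 CPM under vha-16 RNAi, and 21.8, 21.8 and 19.7 CPM under vha-19 RNAi, against 9.2, 8.49 and 10.6 CPM in control (folds of 2.52, 2.8 and 2.24). The gene nlp-18 had 40.6, 43 and 45.2 CPM under vha-6 RNAi, 44.8, 46.9 and 43 CPM under vha-16 RNAi, and 44.6, 41.9 and 43.7 CPM under vha-19 RNAi, against 12.9, 13.9 and 13.4 CPM in control. Its folds of 3.21, 3.35 and 3.242 were nearly equal. The 2 genes of egg-laying peptides differed in size, nlp-3 at folds of 2.43, 2.86 and 2.71 and nlp-7 at 1.44, 1.84 and 1.61 (adjusted p at most 4.18e-07). The gene nlp-1, whose peptide from the olfactory neuron AWC acts through NPR-11, rose 2.56-fold, 3.4-fold and 3.06-fold, and nlp-10 2.02-fold, 1.95-fold and 2.1-fold. Among the smaller rises was nlp-47, a gonadotropin-releasing-hormone-like peptide gene, at 1.49-fold, 1.55-fold and 1.52-fold (adjusted p at most 5.3e-09).

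The RPamide gene nlp-2 made the largest neuronal rise by fold, from few counts. It had 2.7303, 2.6 and 2.77 CPM under vha-6 RNAi, 2.82, 2.9 and 2.25 CPM under vha-16 RNAi, and 2.69, 2.38 and 2.42 CPM under vha-19 RNAi, against 0.352, 0.413 and 0.298 CPM in control, which rests on 5 to 7 counts per library. The folds were 7.51, 7.39 and 6.96 (log2 2.91, 2.89 and 2.80, SE 0.26 each, adjusted p at most 5.24e-12). A second RPamide gene, nlp-23, lies 987 bases from it on the same strand and was sparse, at 7 to 17 counts under vha-6 RNAi, 5 to 6 under vha-16 RNAi and 8 to 12 under vha-19 RNAi, against 2 to 5 in control. It was called under vha-6 and vha-19 RNAi (log2 1.27 and 1.08, adjusted p = 0.0141 and 0.0373) and not under vha-16 RNAi (log2 0.21, adjusted p = 0.729). The vha-6 call was lost without control replicate 1 or vha-6 replicate 1, and the vha-19 call without control replicate 1, control replicate 3 or any vha-19 library other than replicate 3. With DESeq2's Wald test neither was called (1.16 and 0.93), nor was the vha-19 difference with its size factors (0.91). Another pair of neighbours, nlp-9 and nlp-13, lie 14184 bases apart on chromosome V and rose 2.7-fold, 2.78-fold and 2.66-fold and 3.02-fold, 3.84-fold and 3.49-fold.

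The gene nlp-36 was the only neuronal member that was lower in a knockdown. It had 52.5, 56.1 and 52.3 CPM under vha-6 RNAi, 34, 37.1 and 33.3 CPM under vha-16 RNAi, and 29.2, 34.2 and 33.6 CPM under vha-19 RNAi, against 56, 60.1 and 58.4 CPM in control. Under vha-16 and vha-19 RNAi its libraries lay wholly below control (log2 -0.74 and -0.85, SE 0.053 and 0.054, adjusted p = 7.13e-15 and 2.2e-16). Under vha-6 RNAi the ranges overlapped (log2 -0.12, adjusted p = 0.0328), and the sign turned to 0.33 with library totals. That vha-6 call was also lost on leaving out any single library other than control replicate 1 or vha-6 replicate 2. An exon of nlp-36 overlaps the aspartyl-tRNA synthetase gene dars-1 on the opposite strand, which averaged 199 ± 5.93, 229 ± 2.78 and 213 ± 3.7 CPM in the vha-6, vha-16 and vha-19 groups and 378 ± 5.43 CPM in control (SD, n = 3 each). The part of dars-1 reads in the nlp-36 values was not tested.

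The gene nlp-39 did not pass the filter. Its counts were 0, 1 and 1 under vha-6 RNAi, 7, 8 and 5 under vha-16 RNAi, and 7, 8 and 4 under vha-19 RNAi, against 0 in every control library. With the control group set at a floor of 3 counts, it was 4.54-fold higher under vha-16 RNAi and 4.25-fold higher under vha-19 RNAi. The floor allows for counting error in control only, since the knockdown counts were taken as they stand. No fold is given for vha-6 RNAi, where both groups were at or under the floor.

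Seen per length of exon, the order of the family shifted most around the locus. In control the highest members after nlp-40 were nlp-27 at 177 ± 5.44 CPM per kb, nlp-36 at 165 ± 5.93 CPM per kb and nlp-24 at 146 ± 11.2 CPM per kb (SD, n = 3 each), so that neighbours in this order differed by slightly more than the sum of their SDs. Under vha-16 RNAi nlp-34 ranked number 3 of 42 members at 330 ± 26.9 CPM per kb, within its spread of nlp-27 at 335 ± 8.13 CPM per kb, whereas in control it ranked number 29 at 7.75 ± 1.39 CPM per kb. The gene nlp-29 ranked number 4 under vha-16 RNAi at 155 ± 3.25 CPM per kb and number 28 in control at 8.06 ± 2.22 CPM per kb. Under vha-6 RNAi the ranks of nlp-34 and nlp-29 were 18 and 26.

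A further 31 genes of the table are listed under sequence names but carry nlp names in the current annotation. Of 30 tested, 25 were higher and 0 lower by the edgeR test under vha-6 RNAi, 28 and 0 under vha-16 RNAi, and 28 and 0 under vha-19 RNAi, with median log2 fold changes of 1.21, 1.32 and 1.28. An example is H05L03.3, the current nlp-49, whose peptide acts on the stress-linked receptor SEB-3, at 117 CPM under vha-6 RNAi, 83.3 CPM under vha-16 RNAi and 69.6 CPM under vha-19 RNAi, against 37.5 CPM in control. The FMRFamide-like flp genes, another neuropeptide family, were called higher in 31 of 31 in each comparison, with medians of 1.17, 1.55 and 1.45. The difference of the flp genes from the neuronal nlp members was not tested. Beside both lists, 47.9%, 48% and 47.7% of all genes tested were called higher, with medians of 0.24, 0.20 and 0.19.

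Most enzymes that make mature peptides rose as well. Of 10 processing genes, 7 were higher and 1 lower under vha-6 RNAi and 9 higher and 1 lower in each of the other knockdowns. The convertase gene egl-3 averaged 240 ± 1.93, 262 ± 3.46 and 232 ± 8.56 CPM in the vha-6, vha-16 and vha-19 groups and 91.9 ± 2.44 CPM in control (SD, n = 3 each). The carboxypeptidase gene egl-21 had log2 fold changes of 1.23, 1.43 and 1.30, and the convertase chaperone gene sbt-1 1.25, 1.49 and 1.40. Of the amidating enzymes, pghm-1 rose in all 3 comparisons (1.37, 1.54 and 1.45), while pamn-1 was at 0.02 under vha-6 RNAi (adjusted p = 0.779) and rose in the other knockdowns (1.15 and 1.07). Of 13 genes of dense-core vesicle biogenesis and release, 8 were higher and 5 lower under vha-6 RNAi and 11 higher and 2 lower in each of the other knockdowns. Beside them stand the same shares of all genes tested, 47.9% higher and 41.4% lower under vha-6 RNAi, 48% and 41.9% under vha-16 RNAi, and 47.7% and 42.2% under vha-19 RNAi. The vesicle protein gene ida-1 was at 1.55, 1.68 and 1.60, the largest rise of the 13 under vha-6 RNAi, where their median was 0.44. Of the genes that fell there, hid-1 was at -0.30, 0.61 and 0.55 and pkc-1 at -0.36, -0.46 and -0.46. Neither was the largest fall, as the lowest values among the 13 were -1.465, -1.076 and -1.057 in the 3 comparisons. By 2-fold or more 1 of the 13 was lower in each comparison, and 2, 5 and 5 were higher.

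Receptors of nlp peptides were expressed at low levels and mostly rose. Of 14, 11 were higher in each comparison, and 2, 1 and 1 were lower in the vha-6, vha-16 and vha-19 groups. The shares of all genes tested were 47.9%, 48% and 47.7% higher and 41.4%, 41.9% and 42.2% lower. The NLP-12 receptor gene ckr-2 averaged 6.97 ± 0.45, 9.5 ± 0.541 and 9.03 ± 1.08 CPM in the vha-6, vha-16 and vha-19 groups and 2.54 ± 0.211 CPM in control (SD, n = 3 each). The NLP-49 receptor gene seb-3 had log2 fold changes of 0.92, 1.28 and 1.15, the NLP-40 receptor gene aex-2 0.82, 0.73 and 0.95, the PDF receptor gene pdfr-1 0.84, 1.09 and 0.92, and the NLP-29 receptor gene npr-12 0.41, 0.69 and 0.54. The vha-6 call of npr-12 was lost with DESeq2's size factors (0.27). The NLP-1 receptor gene npr-11 went the other way from its ligand gene, with log2 fold changes of -1.12, -2.28 and -2.24 (adjusted p at most 0.00021), at 0.667 ± 0.065, 0.295 ± 0.13 and 0.304 ± 0.0604 CPM in the knockdowns and 1.46 ± 0.292 CPM in control (SD, n = 3 each).

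In the epidermal pathway that controls nlp-29, regulators rose unequally. Of 17 genes, 13 were higher and 3 lower under vha-6 RNAi, 12 higher and 2 lower under vha-16 RNAi, and 12 higher and 3 lower under vha-19 RNAi. Among all genes tested 47.9%, 48% and 47.7% were higher and 41.4%, 41.9% and 42.2% lower. The pseudokinase gene nipi-3 averaged 107.5 ± 2.52, 384 ± 7.85 and 366 ± 3.53 CPM in the vha-6, vha-16 and vha-19 groups and 68.9 ± 0.753 CPM in control, and sta-2 13.2 ± 0.529, 31.1 ± 0.71 and 24.8 ± 2.42 CPM and 8.14 ± 1.22 CPM in control (SD, n = 3 each). Both were lowest in control and higher under vha-16 and vha-19 than under vha-6 RNAi, as nlp-29 was. Between vha-6 and vha-16 RNAi, 4 of the 17 genes were called higher and 9 lower under vha-6 RNAi, with a median log2 fold change of -0.21. Among all genes tested 31.2% were higher and 31.6% lower there. By 2-fold or more 2 of the 17 were lower, beside 8.11% of all genes tested. The adaptor gene tir-1 was instead highest under vha-6 RNAi, with log2 fold changes of 2.37, 2.09 and 1.83. The receptor gene dcar-1 was at 0.90, 1.46 and 1.23 and the transporter gene snf-12 at 1.29, 1.53 and 1.51. The kinase gene pmk-1 was lower under vha-6 RNAi (log2 -0.73, adjusted p = 4.37e-17), while its -0.07 under vha-16 RNAi was not called (adjusted p = 0.102), became -0.26 and was called with DESeq2's size factors, and was 0.45 with library totals. Its -0.15 under vha-19 RNAi (adjusted p = 0.00125) turned to 0.40 with library totals.

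The caenacins, a sister group of epidermal antimicrobial peptides named cnc, showed the order of knockdowns seen at the locus. All 8 that were tested were higher in both the vha-16 and the vha-19 group, and 3 were higher under vha-6 RNAi. Over all genes tested the share called higher was 48%, 47.7% and 47.9% under vha-16, vha-19 and vha-6 RNAi. Of the 8, 4 had a mean control count under 10 and passed the filter through knockdown libraries, so that their rise was favoured by the filter. The gene cnc-4 averaged 7.91 ± 0.542, 94.2 ± 4.84 and 41.5 ± 2.57 CPM in the vha-6, vha-16 and vha-19 groups and 1.54 ± 0.603 CPM in control (SD, n = 3 each), and cnc-11 had log2 fold changes of 2.56, 5.94 and 5.17. With cnc-1, which had 0 control counts, set at the floor of 3 control counts used for nlp-39, the median log2 fold change of the 8 was 3.46 in the vha-16 group and 2.1 in the vha-19 group. The median of 7 without cnc-1 was 1.24 in the vha-6 group.

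Marker genes of several tissues differed from control, in different directions. Of all genes tested, 47.9%, 48% and 47.7% were called higher in the vha-6, vha-16 and vha-19 groups. The shares called lower were 41.4%, 41.9% and 42.2%, and the medians of all genes tested 0.24, 0.20 and 0.19. Of 23 panneuronal markers, 14 were higher and 8 lower under vha-6 RNAi and 17 higher and 6 lower in each of the other knockdowns, with medians of 0.64, 0.83 and 0.74, below those of the neuronal nlp genes. The synaptic genes unc-64 (1.04, 2.03 and 2.21) and rab-3 (0.67, 1.12 and 1.24) rose and maco-1 fell (-1.77, -1.86 and -1.79). The summed level of the panneuronal markers was 1441 to 1465 CPM under vha-6 RNAi, 2263 to 2334 CPM under vha-16 RNAi and 2116 to 2199 CPM under vha-19 RNAi, against 1628 to 1638 CPM in control. Under vha-6 RNAi it thus lay below control, unlike the summed neuronal nlp genes. Without unc-44, the most abundant marker of the list, it was 1035 to 1044 CPM there and 1386 to 1398 CPM in control. Of 20 epidermal and moulting markers, 17 were higher in each comparison, with medians of 2.00, 1.76 and 2.1 and summed levels of 1359 to 1378 CPM under vha-6 RNAi, 1262 to 1340 CPM under vha-16 RNAi and 1333 to 1499 CPM under vha-19 RNAi, against 540 to 554 CPM in control. Between vha-6 and vha-16 RNAi these markers differed by a median log2 of -0.0015. The 6 locus members differed by a median of -1.94, from -3.18 in nlp-34 to -0.84 in nlp-28, and nlp-33 by 0.14. All 16 germline markers fell in each comparison, with summed levels of 1588 to 1619 CPM under vha-6 RNAi, 1288 to 1340 CPM under vha-16 RNAi and 1359 to 1394 CPM under vha-19 RNAi, against 11499 to 11748 CPM in control. Of 10 muscle markers 7 were higher and 3 lower under vha-6 RNAi, 1 higher and 8 lower under vha-16 RNAi, and 1 higher and 7 lower under vha-19 RNAi. No marker in the 5 lists was at 0 in all libraries, and the part of these shifts in the nlp values was not tested.

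**Figure D5:**
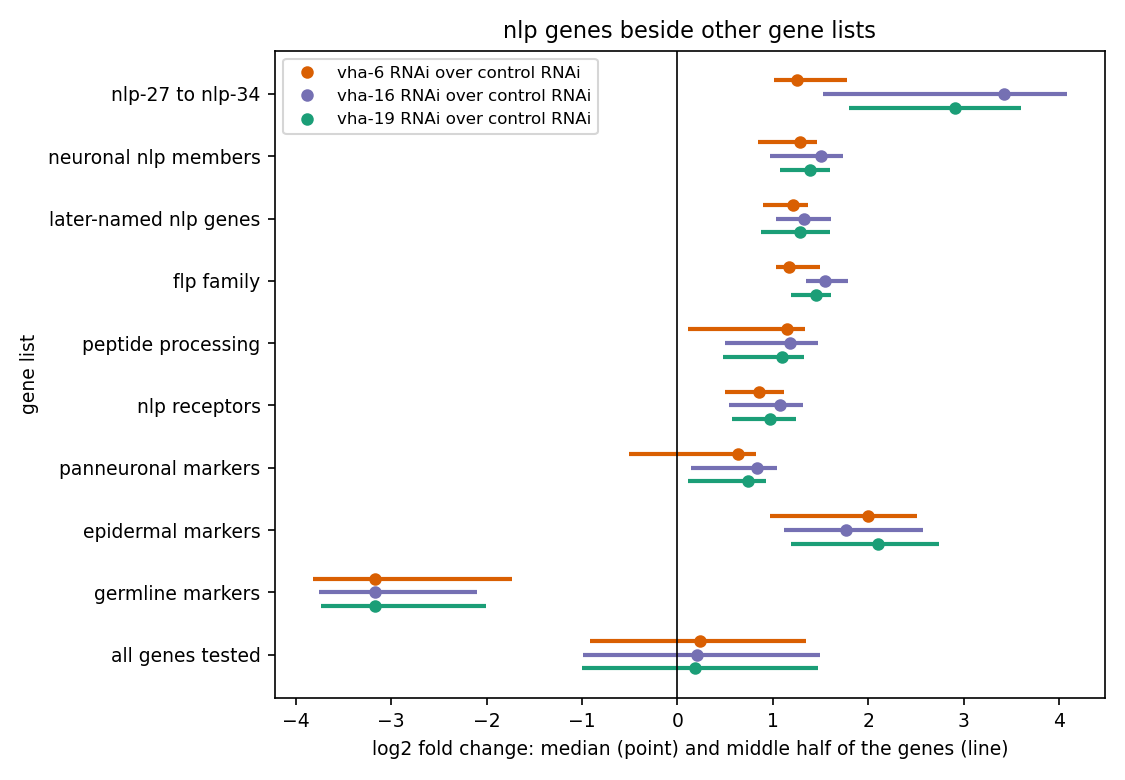
Median log2 fold change over control (points) and the range between quartiles of each list (lines) in the vha-6, vha-16 and vha-19 groups. The 7 epidermal nlp genes have medians of 3.42 and 2.91 in the vha-16 and vha-19 groups and 1.25 under vha-6 RNAi, while the neuronal nlp, later-named nlp and flp lists lie between 1.17 and 1.55 in all 3 comparisons.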

How the data were processed

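The deposited table holds whole-number read counts per gene, which the authors gave without normalization, and 3 entries of unassigned reads that were kept out of library sizes and tests. Of these, reads aligned to more than 1 place made up 9.45 to 9.54% under vha-6 RNAi, 7.62 to 7.67% under vha-16 RNAi, 8.06 to 8.1% under vha-19 RNAi and 15.1 to 15.4% in control, so stretches shared between gene copies are not counted. The submitters' processing notes name the aligner STAR 2.73a, the genome WBcel235 (ce11) and edgeR 3.24.3, and libraries were polyA-enriched per the labels' protocols. For the counting program and its strand setting, the sources used here give nothing. Positions and exon lengths came from Ensembl's WBcel235 annotation.

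The tests ran in edgeR 4.0.16 under R 4.3.3: filterByExpr (minimum count 10, 17043 genes kept), TMM scaling and a quasi-likelihood F-test with 1 mean per treatment over 12 libraries and Benjamini-Hochberg adjustment over all genes tested. Calls are at adjusted p under 0.05. The biological coefficient of variation was 2.99%. Every pair of replicates differed by more than counting noise (chi-square per degree of freedom 1.52 to 2.92). Named are nlp-27 to nlp-34, members with a known role, the 5 largest rises and falls per comparison with control, and genes of fixed lists. Genes flanking the locus, overlapping genes and nlp-13 were chosen after their values were seen. Members with an exon overlapping another gene are named for that overlap. The members and lists were chosen with earlier results of these data known. Alternatives were 3 other scalings, 2 other filters, DESeq2 1.42.0, a fit to the compared groups alone, the replicate number as a block, and leaving out each library. Figures were drawn with matplotlib 3.10.9.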

Additional observations from a re-analysis of the deposited data

How the results depend on the processing

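Of 218 fold changes of single genes, 18 changed sign or side of the threshold under at least 1 of 20 alternatives. The called counts of members ranged over all alternatives from 33 to 41 under vha-6 RNAi, 33 to 40 under vha-16 RNAi and 32 to 41 under vha-19 RNAi, and the 6, 7 and 7 epidermal members called higher were the same number under every alternative. The lowest counts came from the filter at 5 CPM, a setting in which fewer genes are tested. The members called lower under vha-6 RNAi numbered 0 with library totals and 1 with no low-count filter, with the filter at 5 CPM and with the compared groups alone, and 1 to 2 on leaving out single libraries. Under vha-16 RNAi they were 1 with library totals, 3 with either DESeq2 setting and 2 to 3 on leaving out single libraries, the 3 coming without control replicate 2. Under vha-19 RNAi they were 1 with library totals and with the filter at 5 CPM, and 1 to 2 on leaving out single libraries. The cause was not tested.

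Signs turned in genes near no change. Under vha-6 RNAi nlp-24 became -0.0087 with DESeq2's size factors and -0.0088 with DESeq2's Wald test, nlp-27 became 0.048 and nlp-36 0.33 with library totals, nlp-36 0.082 with the filter at 5 CPM, and pamn-1 -0.12 with either DESeq2 setting and -0.033 to 0.08 without single libraries. Under vha-16 RNAi library totals gave 0.11 in nlp-24, 0.32 in nlp-26 and 0.45 in pmk-1, the filter at 5 CPM gave 0.11 in pmk-1, and nlp-23 ran from -0.06 to 0.60 without single libraries. Under vha-19 RNAi library totals gave 0.33 in nlp-24 and 0.40 in pmk-1, the filter at 5 CPM gave 0.034 in pmk-1, nlp-26 became -0.099 with either DESeq2 setting and ran from -0.08 to 0.19 without single libraries. With library totals the median of the neuronal members was 1.73, 2.02 and 1.93 in the vha-6, vha-16 and vha-19 groups.

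Same-numbered libraries did not deviate together (correlations of -0.035 to 0.05 in 18 pairs), so no pairing by number was seen in these values. That does not show how the libraries were prepared. With the replicate block the members called numbered 41, 39 and 40 over control, as without it, and none of the 218 gene results changed its call or direction.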
